A study of Mus musculus with 4 samples.

Results

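The genes described here make and load MHC class I molecules in NF639 cells, a mouse mammary tumour line. They are 10 genes chosen by name: the heavy chains H2-K1 and H2-D1, the light chain B2m, the peptide transporter genes Tap1 and Tap2, tapasin (Tapbp), the immunoproteasome subunits Psmb8, Psmb9 and Psmb10, and the proteasome activator subunit Psme1. Earlier results of these data were known when the genes were chosen. Every probe set that the platform annotation gives to only 1 of these symbols was taken, which gave 26 of the 22690 probe sets on the array. A total of 19 of them, covering all 10 genes, were bright enough to test, among 13576 tested probe sets and 7510 tested genes.

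Gene expression was measured in 2 populations on Affymetrix Mouse 430A 2.0 arrays, with 2 arrays for each. NF639 cells were derived from a mammary tumour driven by a Her-2/neu (Erbb2) transgene, and both populations share this origin. The original population is compared with a pool of the same cells that is resistant to epigallocatechin gallate (EGCG), a catechin of green tea. The resistant cells are 1 pool, not a set of clones, and the original cells are the only control. The submitters describe the RNA as coming from 2 independent experiments. The labels state neither the mouse strain, nor whether EGCG was present at harvest, nor whether a replicate number marks an experiment. A p-value here covers no more than the spread between these arrays. In the fit with the replicate number as a block, all probe sets of like brightness share 1 spread. Those p-values do not measure the spread of a single probe set, and can be too small.

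Class I molecules show short peptides from inside the cell to CD8 T cells. The proteasome cuts proteins into peptides, and under interferon-gamma the catalytic subunits Psmb8, Psmb9 and Psmb10 are built into new proteasomes in place of Psmb5, Psmb6 and Psmb7. The TAP transporter moves peptides into the endoplasmic reticulum, where tapasin and its partners load them onto a heavy chain paired with beta-2 microglobulin. The interferon, NF-kappaB and NLRC5 pathways are known to control many of these genes.

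The 10 genes did not share 1 direction. Psmb8, Psmb9, Psmb10, Psme1, Tapbp and Tap2 had lower signals in the resistant pool, with both resistant arrays below both original arrays for each of these 6 genes. B2m had higher signals on both resistant arrays, and H2-K1, H2-D1 and Tap1 had overlapping arrays. Across all tested genes, 17.2% had both resistant arrays below both original arrays and 19.9% had both above. In limma across all probe sets, 0 of the 10 genes passed an adjusted p of 0.05. In that fit 0.11% of all tested probe sets were called lower in the resistant pool and 0.0589% were called higher. At an unadjusted p under 0.05, 4 of the 10 genes were lower (Tapbp, Psmb8, Psmb9 and Psmb10) and 0 were higher, where 3.93% of all genes were lower. The 10 genes were chosen with earlier results of these data known. These shares and the median given below therefore describe the list and do not test it. When limma was given the replicate number as a block, 3 genes passed: Psmb8 and Tapbp were lower and B2m was higher. That fit called 3.06% of all genes lower and 2.7% higher. In RNA of a whole culture, fewer cells with a transcript and less of it per cell cannot be told apart.

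Fold changes are differences of log2(signal + 3), resistant minus original, and the signals are MAS5 intensities. The median over the 10 genes was -0.37, beside 0.0163 over all 7510 genes. It was -0.50 between the arrays numbered 1 and -0.05 between those numbered 2, and -0.18 when the first original array was left out. The plot of the 10 genes by array shows these positions.

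**Figure D1:**
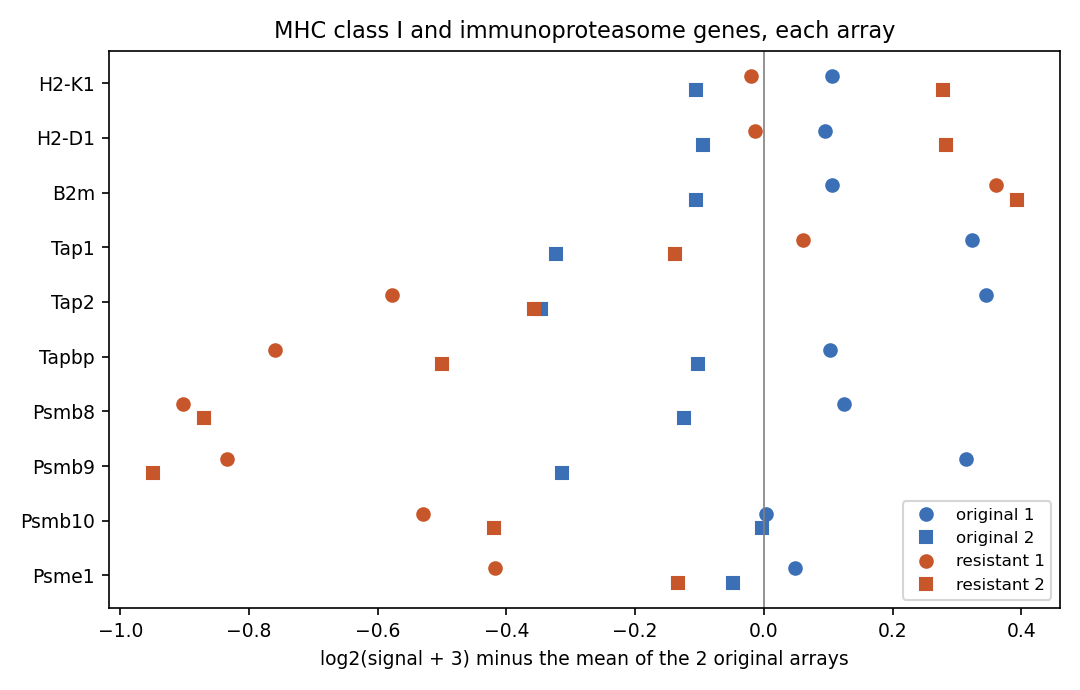
Each point is 1 array, and the x axis gives log2(signal + 3) minus the mean of the 2 original arrays for the brightest tested probe set of each gene. Blue marks the original and orange the resistant population; circles are arrays numbered 1 and squares are arrays numbered 2. The orange points of Psmb8, Psmb9, Psmb10, Tapbp, Tap2 and Psme1 lie left of both blue points, and those of B2m lie right of them.

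The arrays also differed in ways that follow the replicate number. Control transcripts spiked into the hybridisation mix (BioB, BioC and BioDn, 7 probe sets) were 1.39 to 2.11 times brighter on original array 2 than on original array 1, and 1.48 to 2.29 times brighter on resistant array 2 than on resistant array 1. Between arrays of the same number they were within 0.938 to 1.14 times of each other. The differences within each number are therefore given beside the results, and the adjusted p with the replicate block is given too. The probe set at the 5′ end of 18S ribosomal RNA read 4005.3 on original array 2 and 346.7 to 624.3 on the other arrays, while the Gapdh and Actb 3′/5′ ratios were 0.754 to 0.798 and 1.13 to 1.24. Of the 8 epithelial markers on the array only Erbb2 was above the intensity minimum of 49.1, at 280.7 to 326.2, and Krt8, Krt18, Krt19, Cdh1, Epcam, Cldn3 and Cldn4 were below it. The fibroblast markers Col1a1, Col1a2, Dcn, Pdgfra and Pdgfrb were above it, and the 6 fibroblast markers summed to 6050 to 7195.8 in the original and 5284.8 to 6321.2 in the resistant population. Single fibroblast markers differed in both directions: with the replicate block limma called Dcn (-2.15, adjusted p = 1.89e-12) and Col1a2 (-0.62, adjusted p = 3.40e-04) lower and Col1a1 (0.99, adjusted p = 0.0012) and Pdgfra (0.72, adjusted p = 0.0152) higher, and without the block 0 of these 4. The 8 leukocyte markers summed to 490 to 687.4 and 494.1 to 581.2; Cd14 (194.5 to 247.4), Lyz2 (79.6 to 186.6), Cd68 (71.8 to 124.6) and Csf1r (46.5 to 103.8) passed the minimum by their mean, while Ptprc, at 7.4 to 14.8, and Cd3e, Cd79a and Itgam did not. The 4 endothelial markers summed to 31.8 to 69.4. The part of the marker levels in the results below was not tested.

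H2-K1 and H2-D1 encode the classical heavy chains that hold the peptide and are seen by the T cell receptor. The brightest H2-K1 probe set, 1425336_x_at, read 10795.1 and 9322.7 in original cells, against 9893 and 12164.5 in resistant cells. The brightest H2-D1 probe set, 1425545_x_at, read 10672.5 and 9350.3 in original cells, against 9891.4 and 12159.6 in resistant cells. The groups overlapped for both. The difference was 0.13 ± 0.18 (SE, n = 2 and 2) for H2-K1, with a limma adjusted p of 0.9642, and 0.13 ± 0.18 for H2-D1, with a limma adjusted p of 0.9574. The 95% intervals ran from -0.28 to 0.54 and from -0.27 to 0.54. The signals of these 2 probe sets differed by 0.016% to 1.14% on each array. Their suffix, _x_at, marks probes that can bind related transcripts, so they are not separate measurements of the 2 genes.

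Another H2-K1 probe set stood apart from the others. Probe set 1427746_x_at read 1825.9 and 2016.9 in original cells, against 3433.4 and 3539.5 in resistant cells. The resistant arrays lay above the original ones. The difference was 0.86 ± 0.16 (SE), a ratio of mean signals of 1.81, with a 95% interval from 0.50 to 1.22. Its limma adjusted p was 0.0984, and 4.04e-07 with the replicate block. It was 0.91 within number 1 and 0.81 within number 2. The remaining H2-K1 probe sets, 1451931_x_at and 1450534_x_at, had differences of 0.08 and 0.01 with overlapping arrays. The probe sets of H2-K1 thus disagree on the size of the difference, and which transcripts 1427746_x_at bound in these cells was not tested.

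The other tested H2-D1 probe sets gave no separation of the groups. Probe set 1426324_at, the only one of the 9 tested heavy-chain probe sets without the _x_at suffix, read 1831.9 and 1026.1 in original cells, against 1509.5 and 1806.2 in resistant cells, a difference of 0.27 ± 0.25 (SE; limma adjusted p = 0.9086). The differences at 1451784_x_at, 1451683_x_at and 1450170_x_at were 0.08, 0.10 and 0.37. All 9 tested heavy-chain probe sets had a difference above 0, down to 0.01, and in 8 of the 9 the arrays of the groups overlapped. Because 8 of the 9 carry the _x_at suffix, these are not 9 separate measurements. A probe set annotated to both H2-K1 and H2-D1, 1424948_x_at, read 4544.6 and 3476.6 in original cells, against 4381.6 and 4780.7 in resistant cells. Its arrays overlapped too, with a difference of 0.20. Probe set 1451593_at, annotated to both H2-Q5 and H2-K1, read 286.4 and 130.8 in original cells, against 292.6 and 275.9 in resistant cells. The arrays overlapped there as well. That difference was 0.54 (limma adjusted p = 0.8282), or 0.03 within number 1 and 1.06 within number 2. A further 4 H2-D1 probe sets were below the intensity minimum; of these, 1452544_x_at read 36.8 and 63.9 in original cells, against 4.2 and 10.8 in resistant cells, a pair of dim values that was not tested.

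**Figure D2:**
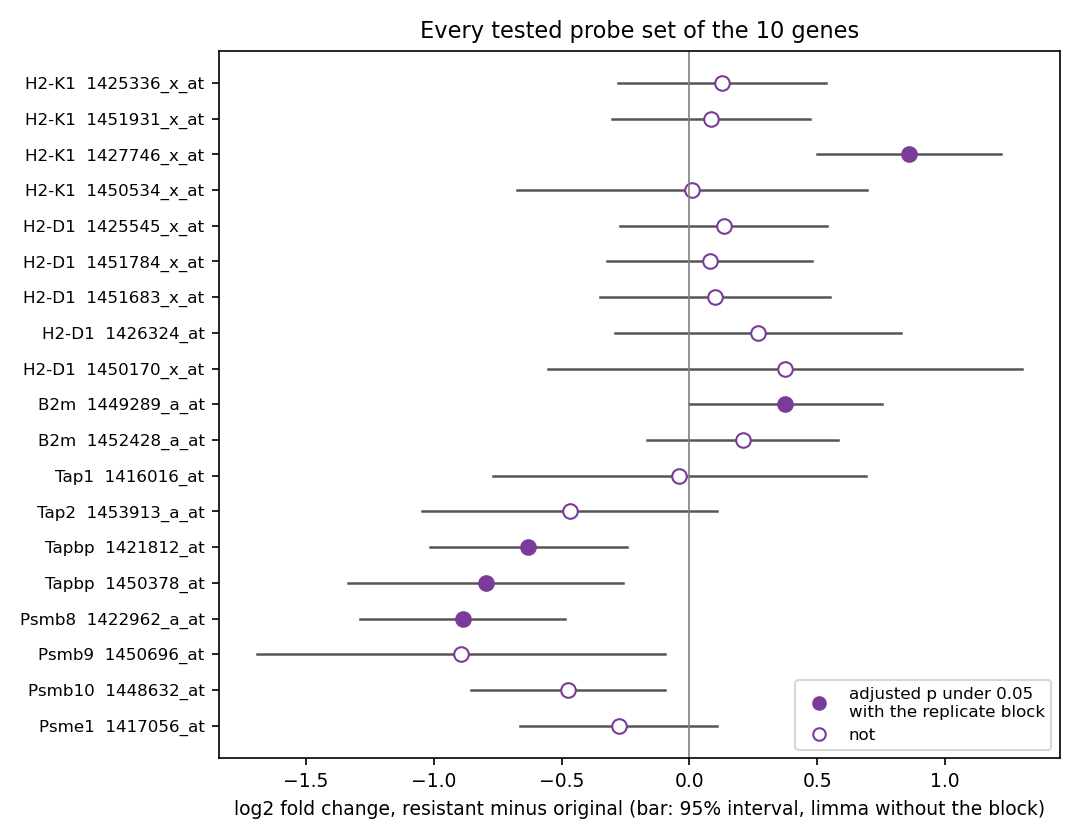
Points are log2 fold changes (resistant minus original) of the 19 tested probe sets of the 10 genes, and bars are limma's 95% intervals without the replicate block. Filled points had an adjusted p under 0.05 with the replicate block: 1427746_x_at of H2-K1 at 0.86, 1449289_a_at of B2m at 0.38, both Tapbp probe sets at -0.63 and -0.80, and Psmb8 at -0.89.

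B2m encodes beta-2 microglobulin, the light chain without which most class I molecules do not reach the cell surface. Its brighter probe set, 1449289_a_at, read 8702.1 and 7515 in original cells, against 10381.8 and 10617.6 in resistant cells. Its other probe set, 1452428_a_at, read 8534.8 and 7519.8 in original cells, against 9090.5 and 9431.6 in resistant cells. In both probe sets both resistant arrays were above both original arrays. The difference was 0.38 ± 0.17 (SE) at the brighter probe set, a ratio of mean signals of 1.29, with a limma adjusted p of 0.6845. With the replicate block that adjusted p was 0.0140, and the difference was 0.25 within number 1 and 0.50 within number 2. At the other probe set it was 0.21 ± 0.17 (SE), with limma adjusted p = 0.8827 and 0.3385 with the replicate block, so the 2 probe sets fall on different sides of the threshold in that fit.

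The upstream sequences of the H2-K1 and B2m genes are shown because these are the heavy-chain and light-chain genes with a probe set that was higher with the replicate block. They come from RefSeq (GRCm38.p6), which holds the reference mouse genome and not that of NF639 cells. Each is the 250 bases before the annotated start, 5′ to 3′ on the strand of the gene, at chr17:34000348-34000597 (minus strand) for H2-K1 and chr2:122147437-122147686 (plus strand) for B2m. Capitals mark matches on either strand to the interferon regulatory factor core GAAANNGAA, the STAT site TTCNNNGAA, the NF-kappaB consensus, TGACG (the core of the X2 box of MHC promoters) or CCAAT (the Y box).
H2-K1: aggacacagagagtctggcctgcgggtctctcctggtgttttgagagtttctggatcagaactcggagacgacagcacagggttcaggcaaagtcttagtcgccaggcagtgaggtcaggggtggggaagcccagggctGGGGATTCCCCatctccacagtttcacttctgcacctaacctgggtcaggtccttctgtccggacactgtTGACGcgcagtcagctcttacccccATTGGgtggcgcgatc
B2m: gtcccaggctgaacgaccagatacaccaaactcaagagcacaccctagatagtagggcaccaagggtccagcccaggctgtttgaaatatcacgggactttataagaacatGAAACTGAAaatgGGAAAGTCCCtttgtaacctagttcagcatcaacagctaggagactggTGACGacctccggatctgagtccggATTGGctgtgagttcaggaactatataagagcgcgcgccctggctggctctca

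In the H2-K1 sequence the NF-kappaB consensus matched as overlapping sites from -111 to -101, TGACG lay at -41 and CCAAT at -16 on the opposite strand, where -1 is the base before the start. B2m had all but the STAT site: GAAANNGAA from -139 to -131, NF-kappaB from -126 to -117, TGACG at -78 and CCAAT at -53 on the opposite strand. Of 32851 mouse upstream windows of the same length, 7.1% hold GAAANNGAA, 7.0% TTCNNNGAA, 3.9% the NF-kappaB consensus, 17.8% TGACG and 33.8% CCAAT. The upstream sequence of H2-D1 holds the same 3 kinds of match as that of H2-K1, and the sequences were identical at 166 of 190 aligned positions (87.4%). These are matches of letters to fixed patterns, and no binding was measured. Other forms of these sites were not searched for, so a sequence without a match can still hold one.

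Tap1 and Tap2 encode the paired chains of the transporter that carries peptides from the cytosol into the endoplasmic reticulum. The only tested Tap1 probe set, 1416016_at, read 172.4 and 109.1 in original cells, against 143.3 and 124.4 in resistant cells. The arrays overlapped, and the difference was -0.04 ± 0.33 (SE; limma adjusted p = 0.9977), with a 95% interval from -0.77 to 0.69. It was -0.26 within number 1 and 0.18 within number 2. The other 3 Tap1 probe sets were below the intensity minimum.

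Tap2 (1453913_a_at) read 650.8 and 401.8 in original cells, against 341.5 and 398.6 in resistant cells. The groups did not overlap, but resistant array 2 was only just below original array 2. The difference was -0.47 ± 0.26 (SE; limma adjusted p = 0.7702, and 0.1929 with the replicate block). Within number 1 it was -0.93 and within number 2 it was -0.01, and without the first original array it was -0.12, so its size rests on that array.

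Tapbp encodes tapasin, which holds the empty class I molecule next to the transporter and favours the binding of stable peptides. Probe set 1421812_at read 5673.3 and 4922.7 in original cells, against 3119.9 and 3735.4 in resistant cells. Probe set 1450378_at read 2165.7 and 1379 in original cells, against 843.1 and 1170.5 in resistant cells. In both, each resistant array was below each original array. The difference was -0.63 ± 0.17 (SE) at the first, a ratio of mean signals of 0.647, and -0.80 ± 0.24 (SE) at the second, a ratio of 0.568. The limma adjusted p was 0.3259 and 0.3841, and with the replicate block it was 8.17e-05 and 1.17e-04. The first probe set differed by -0.86 within number 1 and -0.40 within number 2, and the second by -1.36 and -0.24. The size of the difference thus varied between the numbers and its direction did not.

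Psmb8 encodes the inducible subunit with chymotrypsin-like activity, which favours peptides that fit class I molecules. It read 1425.7 and 1200 in original cells, against 698.1 and 714.6 in resistant cells. The resistant arrays lay well below the original ones. The difference was -0.89 ± 0.18 (SE), a ratio of mean signals of 0.538, with a 95% interval from -1.29 to -0.49. The limma adjusted p was 0.1279, and 4.41e-05 with the replicate block; the difference was -1.03 within number 1 and -0.75 within number 2. Across the alternatives in which it could be tested, it stayed between -1.01 and -0.76.

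Psmb9 and Psmb10 encode the other inducible catalytic subunits. Psmb9 read 163.4 and 104.7 in original cells, against 72.1 and 66.3 in resistant cells. Both resistant arrays were below both original arrays, at signals not far above the intensity minimum of 49.1. The difference was -0.89 ± 0.36 (SE; limma adjusted p = 0.6022, and 0.0935 with the replicate block), or -1.15 within number 1 and -0.64 within number 2; without the first original array it was -0.58.

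Psmb10 read 1331.2 and 1325 in original cells, against 919.3 and 992.4 in resistant cells. Both resistant arrays were below both original arrays, and the original arrays lay close together. The difference was -0.48 ± 0.17 (SE; limma adjusted p = 0.5481, and 0.0819 with the replicate block), a ratio of mean signals of 0.72. It was -0.53 within number 1 and -0.42 within number 2.

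Psme1 encodes a subunit of the interferon-induced activator ring that caps the proteasome. It read 2019.7 and 1889.5 in original cells, against 1461 and 1780.4 in resistant cells. Both resistant arrays were below both original arrays, the second by a small margin. The difference was -0.28 ± 0.17 (SE; limma adjusted p = 0.8250), or -0.47 within number 1 and -0.09 within number 2. Its partner subunit Psme2 is not analysed here, and Psme3, which forms another activator, differed by -0.10 (limma adjusted p = 0.9737).

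The inducible subunits were set against the constitutive subunits they replace. Psmb5 read 2775.1 and 3810.5 in original cells, against 3129.6 and 3676.8 in resistant cells. Psmb6 read 2952.1 and 3776.7, then 3317.6 and 3362.1, and Psmb7 read 8428.3 and 10240.8, then 8577.1 and 9151.6. The groups overlapped for all 3, with differences of 0.06, -0.0008 and -0.07. Averaged on the log2 scale, the inducible subunits differed by -0.75 and the constitutive ones by -0.0035 between the populations.

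The mean of the inducible subunits minus that of the constitutive ones, centred on the 4 arrays, was 0.70 and 0.04 for the original population, against -0.32 and -0.43 for the resistant pool. The resistant arrays lay below the original arrays by 0.75 on average (-0.75; exact permutation test over 4 arrays, two-sided p = 0.3333). This is the smallest p that the 6 arrangements of 4 arrays allow. Without original array 1 the difference was -0.42, and without original array 2 it was -1.08. Each pair had the same direction in both numbers: Psmb8 minus Psmb5 differed by -0.95 (-1.20 within number 1 and -0.69 within number 2). Psmb9 minus Psmb6 differed by -0.89 (-1.32 and -0.47), and Psmb10 minus Psmb7 by -0.41 (-0.56 and -0.25). For the 3 pairs the exact permutation p was again 0.3333, also after adjustment over the pairs.

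**Figure D3:**
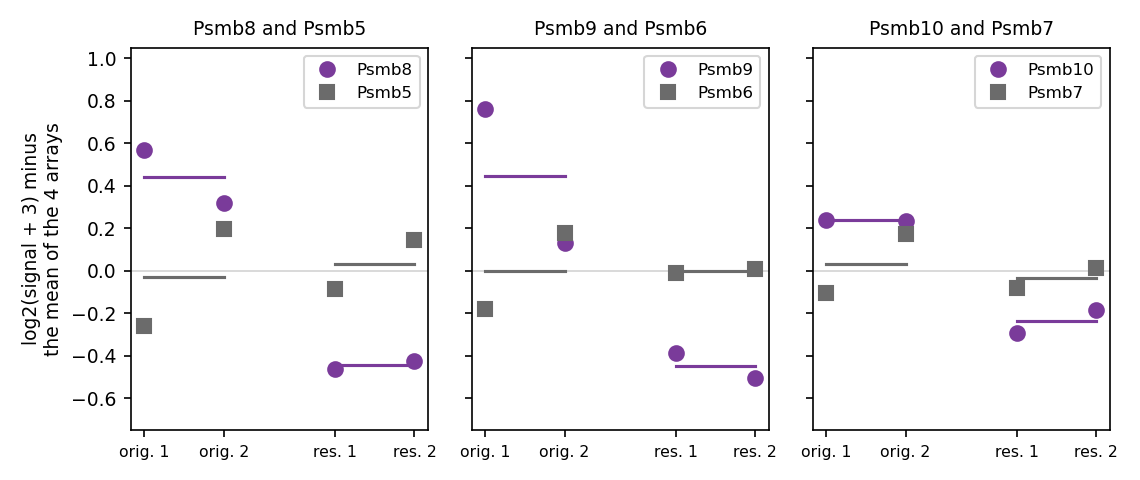
Each panel plots log2(signal + 3), centred on the mean of the 4 arrays, for an inducible subunit (purple circles) and the constitutive subunit it replaces (grey squares), with lines at the group means. The purple lines drop from the original to the resistant arrays by 0.89, 0.89 and 0.48, and the grey lines differ by 0.07 or less.

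The upstream sequences of Tapbp and Psmb8, the members called lower with the replicate block, and the stretch between the starts of Psmb9 and Tap1 are shown for comparison with those above. Psmb9, Tap1, Psmb8 and Tap2 lie next to each other on chromosome 17, and Psmb9 and Tap1 are read in opposite directions from the 225 bases between them. Tapbp is at chr17:33919228-33919477, Psmb8 at chr17:34197945-34198194, and the stretch between Psmb9 and Tap1 at chr17:34187331-34187555, all printed on the plus strand of GRCm38.p6 (RefSeq). Capitals mark the same motifs.
Tapbp: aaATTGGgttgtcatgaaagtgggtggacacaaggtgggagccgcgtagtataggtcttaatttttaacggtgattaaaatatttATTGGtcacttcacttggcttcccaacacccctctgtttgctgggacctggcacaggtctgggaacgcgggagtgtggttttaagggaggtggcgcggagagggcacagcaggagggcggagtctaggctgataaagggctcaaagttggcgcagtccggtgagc
Psmb8: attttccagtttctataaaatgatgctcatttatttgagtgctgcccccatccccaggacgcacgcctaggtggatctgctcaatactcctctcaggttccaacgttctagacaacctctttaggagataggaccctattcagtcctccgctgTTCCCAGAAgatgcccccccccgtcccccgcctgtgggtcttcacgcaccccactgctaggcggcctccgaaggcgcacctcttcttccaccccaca
Psmb9 to Tap1: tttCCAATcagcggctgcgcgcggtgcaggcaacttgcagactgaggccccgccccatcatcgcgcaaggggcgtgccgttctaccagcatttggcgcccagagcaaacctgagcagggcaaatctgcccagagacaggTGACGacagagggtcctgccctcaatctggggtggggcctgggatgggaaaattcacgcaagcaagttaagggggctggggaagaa

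Psmb8 held the STAT site TTCNNNGAA from -97 to -89, which reads alike on both strands, and no other match. Tapbp held CCAAT at -248 and -165 on the opposite strand. The stretch between Psmb9 and Tap1 held CCAAT at base 4 and TGACG at base 140, counted from its Psmb9 end. Psmb9 and Tap1, which share this stretch, differed by -0.89 and -0.04 between the populations. Both are dim, and their 95% intervals overlap, from -1.69 to -0.10 and from -0.77 to 0.69. Whether the 2 genes differ from each other was not tested. The upstream windows of Psmb10 and Psme1 held 0 matches to these motifs.

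Partners that fold and load class I molecules or trim their peptides were measured as a further list. Of 14 tested genes, 10 were below 0 and 4 above, with a median of -0.14. In limma 0 were called, and 1 was lower at an unadjusted p under 0.05, where 3.93% of all genes were. With the replicate block 1 of the 14 was called lower, where 3.06% of all genes were. It was the lectin chaperone calreticulin (Calr), which reads sugars on newly made heavy chains. Calr read 6824.7 and 7541.2 in original cells, against 5088.1 and 5744.5 in resistant cells. The groups did not overlap. Its difference was -0.41 ± 0.17 (SE; limma adjusted p = 0.6084, and 0.0152 with the replicate block), or -0.42 within number 1 and -0.39 within number 2. The chaperone calnexin (Canx) differed by -0.12, the disulfide isomerase Pdia3 by -0.23 and the trimming peptidase Erap1 by -0.34, all with overlapping arrays.

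Among 14 other tested proteasome core and activator subunits, 10 were below 0 and 4 above, with a median of -0.08. In limma 0 were called, and 0 had an unadjusted p under 0.05. With the replicate block 2 of the 14 were called lower, where that fit called 3.06% of all genes lower. Psma5 read 5845.3 and 7218.8 in original cells, against 5345.4 and 4629.5 in resistant cells, and Psmb4 read 7129.6 and 8779, then 5822.6 and 6647.4. Both are structural subunits of the core, and in both each resistant array was below each original array. Their differences were -0.39 and -0.35, with limma adjusted p of 0.0310 and 0.0470 in the fit with the block and 0.6960 and 0.7416 without it.

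Of the other class I heavy chain genes 4 could be tested, with 2 above and 2 below 0 and a median of -0.05. H2-M3, which presents formylated peptides, read 1430.2 and 1164.3 in original cells, against 838.3 and 914.8 in resistant cells. Each resistant array was below each original array. Its difference was -0.56 ± 0.18 (SE; limma adjusted p = 0.4687, and 0.0282 with the replicate block).

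The regulators of these genes had no common direction. Of 24 tested, 12 were above and 12 below 0, with a median of -0.02. In limma 0 were called. At an unadjusted p under 0.05, 2 were higher and 1 was lower, beside 296 and 295 of all 7510 genes. With the replicate block, 1 of the 24 was called in each direction. That fit called 3.06% of all genes lower and 2.7% higher. Nfkb2, a subunit of the alternative NF-kappaB pathway, read 1065.3 and 621.1 in original cells, against 430.1 and 399.5 in resistant cells. Socs3, a feedback inhibitor of cytokine receptors that signal through STAT3, read 531.5 and 473.9 in original cells, against 1185.8 and 674.4 in resistant cells. The groups did not overlap for either gene. Nfkb2 differed by -0.97 ± 0.26 (SE; limma adjusted p = 0.2983, and 4.56e-05 with the replicate block), and Socs3 by 0.83 ± 0.26 (SE; limma adjusted p = 0.4159, and 6.30e-04 with the replicate block). Irf1, an interferon-gamma-induced activator of class I and immunoproteasome genes, read 1621.7 and 851.9 in original cells, against 1370.9 and 951.2 in resistant cells. Its arrays overlapped, with a difference of -0.04 (limma adjusted p = 0.9977). Nlrc5 is not analysed here.

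Interferon-induced genes outside the presentation pathway were measured to set beside the members. Of 16 tested, 12 were below 0 and 4 above, with a median of -0.22 and a range from -0.60 to 0.23. None passed limma's threshold, with or without the replicate block, 0 had an unadjusted p under 0.05, and in 2 both resistant arrays were below both original arrays. The lowest of the tested genes was the chemokine gene Cxcl10, at 388 and 141.1 in original cells, against 181.1 and 130.2 in resistant cells. Its arrays overlapped, and it was named after its value was seen. A further 12 genes of the list were below the intensity minimum, which is set on the mean of all arrays and so can leave out a gene that is bright in only 1 population. Without the filter 7 of these 12 were above 0 and 5 below. In 3 of them both resistant arrays were below both original arrays, and in 1 both were above. Across all tested genes these shares were 17.2% and 19.9%, and the shares among dim genes were not computed. The 1 above was Ifit1, at 5.3 and 21.8 in original cells, against 25.7 and 23.3 in resistant cells. Oas1a, an antiviral sensor of double-stranded RNA, read 124.4 and 111.9 in original cells, against 14.4 and 8.5 in resistant cells. Without the filter its difference was -3.10 (limma adjusted p = 0.2188). Oas2, of the same family, read 49.6 and 30.8, against 4.8 and 13.3, and Ube2l6, a conjugating enzyme for Isg15, read 75.5 and 47.5, against 24.1 and 17. In the fit without the filter limma called 0 of these 12 genes. Ifit1, Oas1a, Oas2 and Ube2l6 were named after their values were seen. The median of the 16 tested genes was -0.34 within number 1 and -0.06 within number 2, so its size, like that of the members' median, differed between the numbers.

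**Figure D4:**
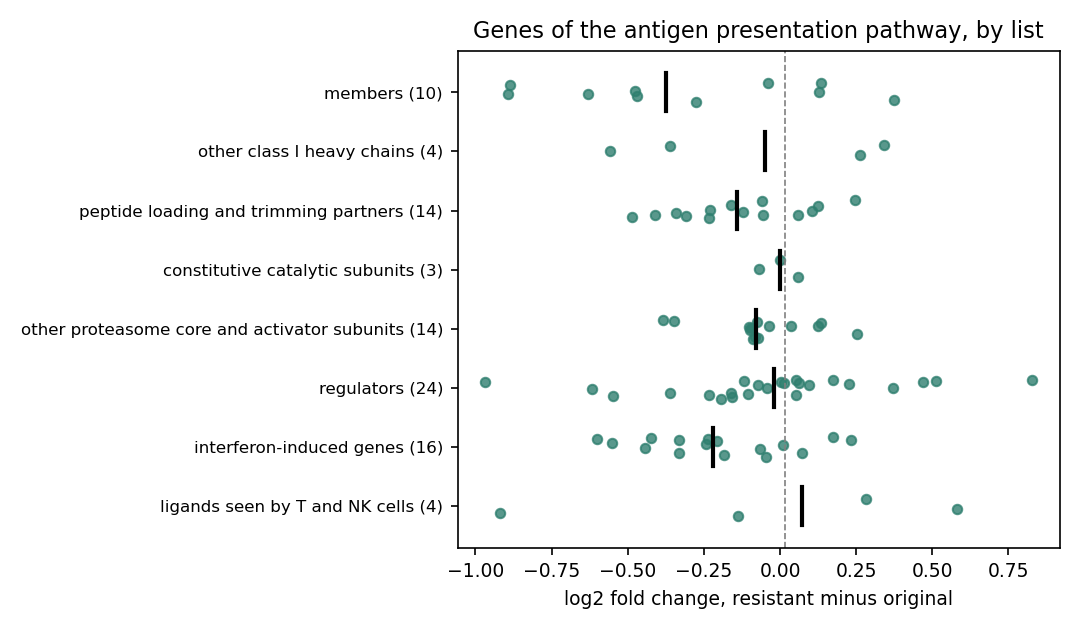
Each point is the log2 fold change (resistant minus original) of 1 tested gene, grouped by list with the number of genes in parentheses; black bars are list medians and the dashed line is the median of all 7510 genes, 0.0163. The members' median is -0.37 and the medians of the other lists plotted lie between -0.22 and 0.07.

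Class II genes, which present peptides to CD4 T cells, were left out by the filter. The 8 on the array with 1 symbol were all below the intensity minimum, among them Cd74 at 30.7 to 60.8 and the class II activator Ciita at 15.9 to 31.9. In the fit without the filter 4 were above and 4 below 0, and limma called 0. Of the ligands that T and NK cells see, 4 were tested, with 2 above and 2 below 0. Pvr, a ligand of activating and inhibitory receptors on NK cells, read 405.1 and 445.9 in original cells, against 200.6 and 248.8 in resistant cells. The resistant arrays were the lower ones. Its difference was -0.92 ± 0.24 (SE; limma adjusted p = 0.2770, and 0.0013 with the replicate block).

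Of the 10 genes, 7 lie in the mouse MHC on chromosome 17, from Tapbp at one end to H2-D1 at the other, and Psmb10, Psme1 and B2m lie on chromosomes 8, 14 and 2. RefSeq lists 90 protein-coding genes over that stretch, of which 45 were tested. The 38 tested genes there that are not members had a median difference of 0.0256, with 24 above and 14 below 0, and limma called 0 with or without the replicate block and 0 at an unadjusted p under 0.05 without it. Both resistant arrays were below both original arrays in 1 of the 38 and above them in 8, where 17.2% and 19.9% of all tested genes were. Among the members in that stretch the lower values were at Tapbp, Psmb9, Psmb8 and Tap2, while Tap1, between Psmb9 and Psmb8, differed by -0.04. Of the members outside the MHC, Psmb10 and Psme1 were lower and B2m was higher, each with non-overlapping arrays. Whether position in the genome plays a part was not tested.

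**Figure D5:**
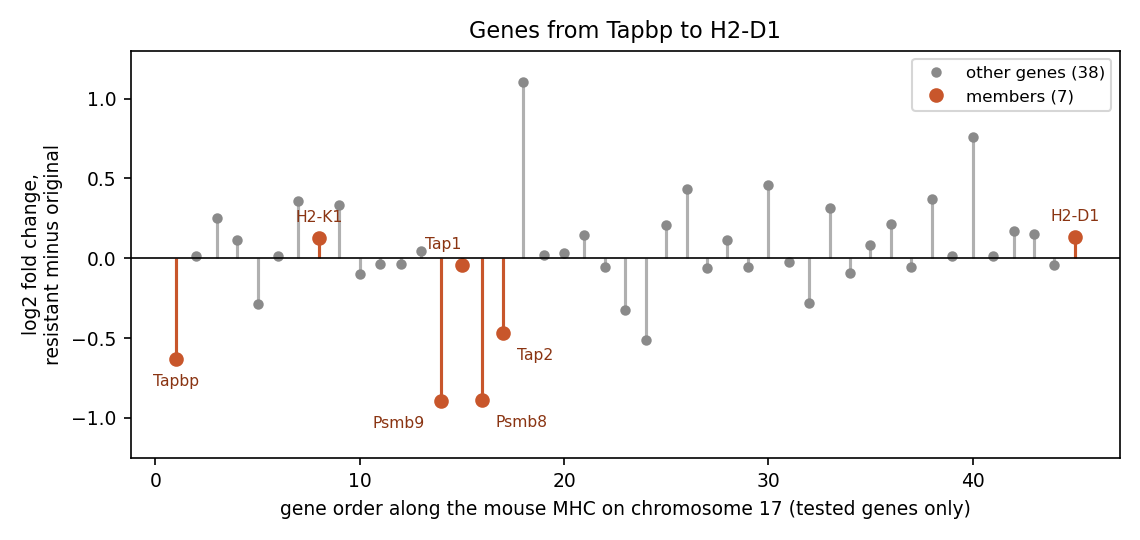
The log2 fold change (resistant minus original) of the 45 tested genes from Tapbp to H2-D1, in their order along chromosome 17, with the 7 members in orange and 38 other genes in grey. Psmb9 and Psmb8 stand at -0.89 and Tap1 between them at -0.04; the other genes run from -0.51 to 1.11 with a median of 0.0256.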

How the data were processed

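RNA of 2 original and 2 EGCG-resistant NF639 cultures was measured on 4 arrays. The authors deposited MAS5 signal intensities, 1 value per probe set and array on a linear scale, per the submitters' processing notes, with its version not given in the sources used here. MAS5 subtracts mismatch signal, so dim probe sets carry large relative errors. In the deposited table the trimmed means of the arrays were 496.8 to 497.8, so a difference in total RNA between the populations would not be seen. For arrays, their number limits the precision.

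Each array was brought to the same trimmed mean (2% at each end, without the 64 control probe sets), and log2(signal + 3) was taken, which understates changes of dim genes. The tests left out probe sets with a mean log2 value below the 40th percentile, equal to a signal of 49.1. The analysis plan named the mean signal, so the alternative with a filter on linear means lies nearer to it. limma 3.58.1 in R 4.3.3 (lmFit, eBayes with a trend) compared resistant with original over all 13576 probe sets, with two-sided p-values, Benjamini-Hochberg adjustment and a threshold of 0.05. A gene took its brightest tested probe set. The fit with the replicate number as a block has 1 residual degree of freedom, and limma then lets all probe sets of like brightness share 1 spread. Its p-values therefore do not measure the spread of a single probe set, and can be too small where that spread is larger. No label states that the number pairs the arrays; after removal of group means the arrays numbered 1 correlated at 0.3515 across probe sets. The procedure was tested on simulated data.

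Gene names came from the platform annotation, which gave 1 symbol to 20380 probe sets, several to 691 and none to 1555; all 10 members matched RefSeq by gene identifier. Upstream sequences were found for 9 of them. The members and gene lists were chosen with earlier results of these data known. All members were named, with up to 4 genes of each other list that were called in either fit, by size, and Irf1, Nlrc5, Psmb5, Psmb6, Psmb7, Psme2, Psme3, Calr, Canx, Pdia3 and Erap1 whatever their test; an item of that rule is not reported here. Alternatives varied the pseudocount, the intensity filter, the scaling, the trend, the block, the probe set rule and the arrays included.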

Additional observations from a re-analysis of the deposited data

How the results depend on the processing

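With 2 arrays a group the precision is low, and dim genes such as Tap1 and Psmb9 are the least certain. In limma 23 probe sets were called in all, 8 higher and 15 lower in the resistant pool. The count was 5 with no intensity filter, 10 with a filter at the 60th percentile, 8 after quantile normalization (1 higher and 7 lower), 0 without a trend (922 at an unadjusted p under 0.05), 27 with scaling to a common median, 31 with a filter on linear means (chosen after seeing the data), 75 to 155 when any of the 4 arrays was left out, and 710 with the replicate block. The count of members called was 3 with the replicate block (B2m, Tapbp and Psmb8) and 0 under every other setting run. The cause of these changes was not tested. Leaving out 1 array moved the members' median to between -0.48 and -0.18, the latter without original replicate 1. The same omissions gave -1.08 to -0.42 for the inducible minus constitutive subunits. They turned the sign of Tap1 (-0.36 to 0.28), H2-K1 (-0.0221 to 0.2779) and H2-D1 (-0.0162 to 0.2834). The other 7 members kept their sign under every alternative in which they could be tested, with Psmb8 between -1.01 and -0.76, Tapbp between -0.76 and -0.50, and B2m between 0.27 and 0.48. Probe set 1427746_x_at of H2-K1 stayed between 0.79 and 0.93. Psmb9 and Tap1 could not be tested with the filter at the 60th percentile. Another setting left out probe sets with the suffix _x_at, _s_at or _a_at. H2-K1 could not be tested there, nor could B2m, Tap2 and Psmb8, whose probe sets end in _a_at.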
